A study of Caenorhabditis elegans with 6 samples.

Results

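The loci described here are the 21U-RNA loci of the large distal cluster on chromosome IV of Caenorhabditis elegans. They were taken from the deposited tables as the rows named 21ur- whose sequence name belongs to 1 of the 5 clones Y57G11C, Y105C5A, Y105C5B, Y51H4A and Y116A8A. This gave 4039 of 42402 annotated loci, and 4039 of the 13407 21U-RNA loci, which is 30.1% of them. In the WBcel235 annotation all 4039 were found by gene identifier on chromosome IV, were of the piRNA class and were 21 bases long. Of the 9368 21U-RNA loci outside these clones, 8795 also lay on chromosome IV, so members and outside loci are split by clone name and not by chromosome.

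21U-RNAs are the piRNAs of C. elegans. They are made in the germ line from many short transcription units, each with its own precursor, and a large part of these units lies in clusters on chromosome IV. Mature 21U-RNAs bind the Argonaute PRG-1, and where the complex meets a target transcript, RNA-dependent RNA polymerases make secondary 22G-RNAs that other Argonautes carry. HRDE-1 is an Argonaute that binds such secondary small RNAs and works in germ line nuclei. MEG-3 and MEG-4 help to build P granules, condensates found around germ line nuclei and in early embryonic germ cells where parts of the piRNA pathway are found.

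Small RNAs were sequenced from whole worms, with 2 libraries for each of 3 mutant strains, and the series compares these strains with each other and with the wild type N2. The hrde-1 strain carried hrde-1(tm1200). A strain labelled JH3745 outcrossed carried meg-3(ax3055) and meg-4(ax3052) and is called the meg double mutant here, and the triple mutant carried all 3 alleles. Every strain was synchronized by starvation, fed HT115 bacteria with the L4440 vector at 20 °C and collected as young mothers, and a 5' polyphosphatase was applied to the RNA. Whole worms were used, so fewer germ cells and less RNA per germ cell cannot be told apart. Libraries of N2 were not part of the samples listed, and sums over N2 were not analysed here. Values over N2 are taken only from the fold changes and adjusted p-values of the authors' deposited tables, which carry no error. The labels do not say whether the 2 libraries of a strain came from separate cultures, so p-values measure the spread between these libraries, which may be technical.

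Reads counted at annotated loci ranged from 2384147 to 6780320 per library, and the second triple mutant library was the shallowest. No reads were found at meg-4 in the 4 libraries labelled as lacking it, which allows up to 3 reads per library, while the hrde-1 libraries held 8.81 and 8.47 reads there per 1000000 counted reads (RPM). At meg-3 the hrde-1 libraries held 9.54 and 4.78 RPM, the meg double mutant held 0.355 and 0.586 RPM, and the triple mutant libraries held 0. Small RNAs at the hrde-1 gene were present in every library, and this locus does not check the hrde-1 label. miRNA reads took 17.8% and 19.0% of the hrde-1 libraries, against 27.9% to 31.2% of the other 4. Summed reads of the mir-35 family, miRNAs of oocytes and embryos, were 5209 and 13246 RPM for the meg double mutant and 7968 to 11065 RPM in the other 4. The vit yolk protein genes of the intestine stood at 288 and 3145 RPM in the meg double mutant and at 49.0 to 123 RPM elsewhere, and the msp sperm genes at 22.9 to 66.9 RPM throughout. The 13 listed somatic miRNAs summed to 57751 and 60326 RPM in the hrde-1 libraries and to 93727 to 116244 RPM in the other 4. The part of these differences in the results below was not tested.

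In sum, the cluster made up about 1% of the counted reads in every strain. Its share was 1.01% and 1.19% in hrde-1, 0.798% and 0.944% in the meg double mutant, and 0.941% and 0.867% in the triple mutant. The widest exact (Clopper-Pearson) 95% interval of these shares, for the second triple mutant library, ran from 0.855% to 0.879%. Both hrde-1 libraries were above the other 4, and the meg double mutant and triple mutant libraries overlapped. Group means were 1.097% ± 0.125 (SD, n = 2) in hrde-1, 0.871% ± 0.104 (SD, n = 2) in the meg double mutant and 0.904% ± 0.0519 (SD, n = 2) in the triple mutant.

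The log2 ratio of the summed shares was 0.05 for the triple mutant over the meg double mutant (two-sided exact permutation p = 1). It was -0.28 for the triple mutant over hrde-1 and -0.33 for the meg double mutant over hrde-1, each with a two-sided exact permutation p = 0.3333. That is the smallest p that 2 libraries against 2 allow, so no difference in the sum could pass 0.05. The ratio of the triple mutant over hrde-1 turned to 0.14 when libraries were scaled by the trimmed mean of M values (TMM) in place of their totals. With TMM scaling the libraries of all 3 strains overlapped. The scaled sums were 7978 and 11209 in hrde-1, 7576 and 9697 in the meg double mutant, and 11525 and 9690 in the triple mutant.

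Relative to miRNA reads the hrde-1 libraries stood further from the other 4. The hrde-1 libraries held 5.67 and 6.24 cluster reads per 100 miRNA reads, the meg double mutant held 2.63 and 3.07, and the triple mutant held 3.01 and 3.11. The 2 hrde-1 libraries stood above the other 4 on this scale too, and they are also the libraries with the lower miRNA share. A change in miRNAs and a change in 21U-RNAs cannot be told apart from this ratio.

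Within the 21U-RNAs the cluster took a larger part in the meg double mutant than in the other strains, a comparison chosen after the values were seen. Cluster reads were 28.4% and 28.1% of all 21U-RNA reads in hrde-1, 31.0% and 32.7% in the meg double mutant, and 28.3% and 28.4% in the triple mutant. Both meg double mutant libraries were above the other 4, and the hrde-1 and triple mutant libraries lay within 1 percentage point of each other. The 21U-RNA loci outside the cluster clones held 1.77% and 1.94% of counted reads in the meg double mutant, 2.55% and 3.03% in hrde-1 and 2.38% and 2.18% in the triple mutant. Without the 10 loci with the highest level on each side, the cluster held 30.8% and 32.6% of 21U-RNA reads in the meg double mutant and 26.9% to 27.9% in the other 4 libraries.

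**Figure D1:**
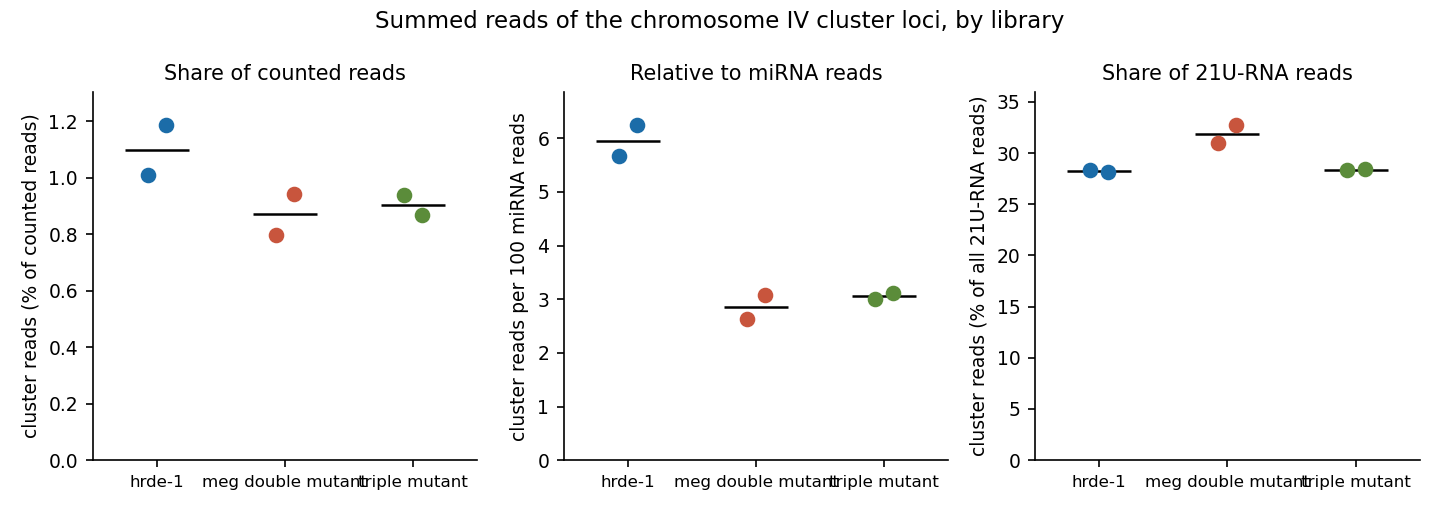
Summed cluster reads per library as a percent of counted reads, per 100 miRNA reads and as a percent of all 21U-RNA reads; points are libraries, bars are the means of 2. The hrde-1 libraries are highest in the first 2 panels and the meg double mutant libraries, at 31.0% and 32.7%, are highest in the third.

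Reads were spread very unevenly over the cluster. A level is given here as the mean over the 3 strains of the mean RPM of a strain. No read was found in any of the 6 libraries at 962 loci, or 23.8%, and 1100 loci, or 27.2%, had at least 1 read in all 6. A locus with 0 reads may still hold up to 3 reads by counting error alone, which is 0.442 to 1.26 RPM depending on the library. The level was at least 100 RPM at 17 loci, at least 10 RPM at 140 and at least 1 RPM at 797, while 2280 loci with reads lay under 1 RPM. The 10 loci with the highest level made 25.1% of the cluster's level, the first 100 made 67.9% and the first 1000 made 96.1%. The median level was 0.123 RPM, and the mean level per locus was 2.37 RPM, against 2.46 RPM for the 9368 21U-RNA loci outside the cluster clones. Of those outside loci 31.2% had no read in any library and 22.3% had a read in all 6.

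The order of the loci by level was much the same in every strain. Over the 140 loci at 10 RPM or more, Spearman's rho between 2 libraries of a strain ran from 0.914 to 0.944, and between libraries of different strains from 0.877 to 0.942. These are correlations across loci within pairs of libraries, and loci are not independent replicates.

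The locus with the highest level was 21ur-1114 (Y51H4A.392, WBGene00050800), which lies outside annotated genes on the minus strand. Its values were 395 and 441 RPM in hrde-1, 314 and 456 RPM in the meg double mutant, and 462 and 380 RPM in the triple mutant. The 3 strains overlapped, and limma gave a log2 fold change of 0.33 ± 0.36 (SE) for the triple mutant over the meg double mutant (adjusted p = 0.778). Its log2 fold change over N2 in the authors' deposited tables was 0.71 in the triple mutant (adjusted p = 0.00245) and 0.33 in hrde-1 (adjusted p = 0.487).

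Second was 21ur-14 (Y105C5B.132, WBGene00046555), on the sense strand within an intron of jac-1, the p120 catenin homologue of cell junctions. It held 488 and 467 RPM in hrde-1, 298 and 350 RPM in the meg double mutant, and 320 and 305 RPM in the triple mutant. Both hrde-1 libraries were above the other 4, but the fitted differences from hrde-1 were -0.37 ± 0.33 (SE) for the meg double mutant (limma adjusted p = 0.611) and -0.18 ± 0.33 (SE) for the triple mutant (limma adjusted p = 0.789). Over N2 it rose in both of the authors' deposited tables with N2, by 1.02 on the log2 scale in hrde-1 (adjusted p = 0.00294) and by 0.78 in the triple mutant (adjusted p = 0.00201).

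The next in level were 21ur-2728, 21ur-2799, 21ur-1684, 21ur-3085, 21ur-621, 21ur-6009, 21ur-5568 and 21ur-2388, followed by 21ur-2649 and 21ur-5729. At 21ur-2728 (Y105C5A.70) the libraries held 335 and 312 RPM in hrde-1, 192 and 220 RPM in the meg double mutant, and 299 and 248 RPM in the triple mutant. At 21ur-2799 (Y57G11C.297) they held 301 and 297 RPM in hrde-1, 181 and 196 RPM in the meg double mutant, and 259 and 216 RPM in the triple mutant. By RPM both loci had the hrde-1 libraries highest and the meg double mutant libraries lowest without overlap between strains. With TMM scaling the triple mutant over hrde-1 had the opposite sign. There limma gave 0.19 ± 0.34 (SE) at 21ur-2728 and 0.09 ± 0.34 (SE) at 21ur-2799. Neither passed limma's test between any pair of strains, with adjusted p from 0.495 to 0.894. 21ur-3085, on the sense strand in an intron of talp-3, and 21ur-6009, likewise in an intron of anoh-2, an anoctamin family gene, reached 163 to 239 RPM and 94.2 to 226 RPM. At 21ur-1684, antisense in an intron of Y51H4A.8, the 2 triple mutant libraries were highest at 280 and 241 RPM, against 224 to 240 RPM in the other 4.

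**Figure D2:**
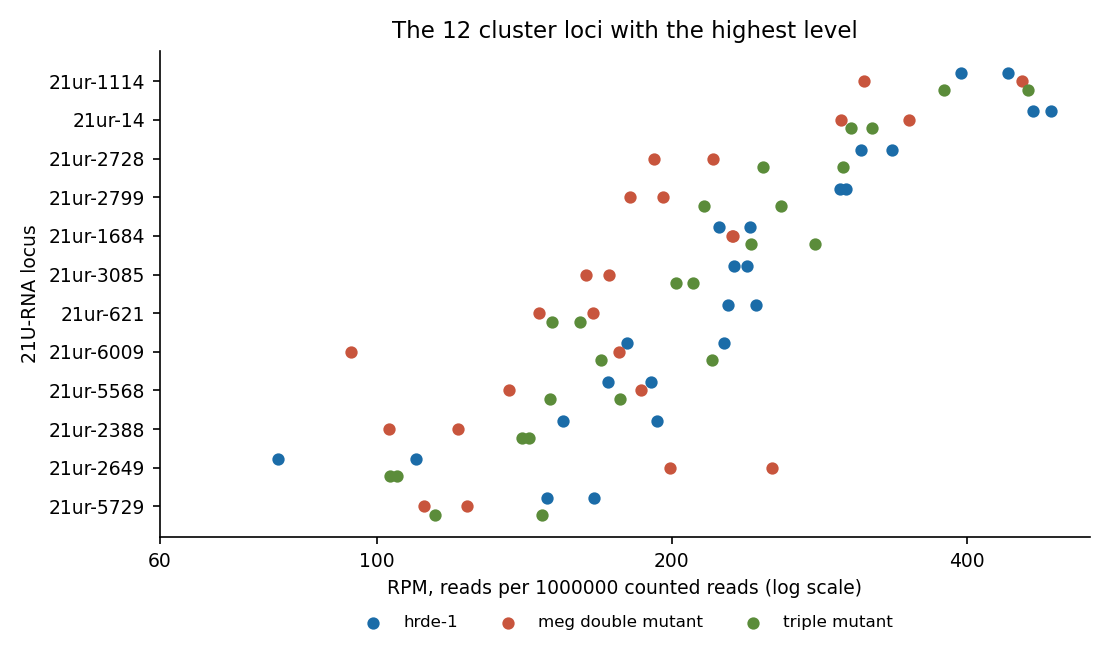
RPM, on a log axis, of the 12 cluster loci with the highest level; each point is a library and colours mark the strains. At 11 of the 12 no strain passed limma's test against another, and 21ur-2649 is the locus with both meg double mutant libraries, at 199 and 253 RPM, far above the rest.

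Most loci of the cluster lay outside protein-coding genes and pseudogenes. This held for 2882 loci, or 71.4%, which made 71.5% of the cluster's level. Another 540 loci lay in introns on the sense strand and made 17.9% of the level, and 509 lay in introns on the antisense strand and made 9.70%. Exons held 64 loci in sense and 44 in antisense, which made 0.205% and 0.688% of the level, and 37.5% and 45.5% of them had no read. Strands were nearly balanced, with 2045 loci on the plus and 1994 on the minus strand. Of the 4039 loci 1988, or 49.2%, overlapped another 21U-RNA locus, and how the authors assigned reads that match both is not given in the sources used here. The tables give no read length, so 21U-RNAs and other small RNAs that start elsewhere over the same bases cannot be told apart.

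Between the strains few single loci passed the tests. limma was fitted to every locus whose mean reached 10, as deposited for the triple mutant over the meg double mutant and as TMM-scaled RPM for the other pairs. A locus was called where its p, adjusted by Benjamini-Hochberg over all loci tested, was under 0.05. For the triple mutant over the meg double mutant, 133 cluster loci could be tested and 1 was called, lower, where 7.75% of the 6067 loci tested were called (4.3% higher, 3.44% lower). The call was lost under several other settings and whichever triple mutant library was left out. For the triple mutant over hrde-1, 0 of 140 were called, against 10.3% of 6469 loci (4.37% higher, 5.91% lower). None of the 140 had an unadjusted limma p under 0.05, and edgeR and DESeq2 called 0 too. For the meg double mutant over hrde-1, 3 were called higher and 1 lower of 140, against 16.4% of 6469 loci (7.02% higher, 9.38% lower), and without the first hrde-1 library 0 remained.

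Median log2 fold changes of the tested cluster loci were small. The median was 0.31 in the triple mutant over the meg double mutant, against -0.11 over all loci tested, and 115 of 133 loci were above 0. The 283 tested 21U-RNA loci outside the cluster clones had a median of 0.43, and 18 of them were called higher and 0 lower. Over all loci tested 4.3% were higher and 3.44% lower. The 18 became 0 with scaling to library totals or to miRNA reads and 8 with a replicate block. They became 22 with edgeR, 26 with DESeq2 and 28 with TMM scaling of all 6 libraries. In the triple mutant over hrde-1 the cluster median was 0.18 against -0.18 over all loci, and in the meg double mutant over hrde-1 it was -0.21 against -0.15. In the meg double mutant over hrde-1, 38 of 304 tested 21U-RNA loci outside the cluster clones were called lower and 1 higher. Most of these outside loci lie on chromosome IV too. Over all loci tested 9.38% were lower and 7.02% higher. The count of outside loci called lower fell without either hrde-1 library or the first meg double mutant library, and rose without the second. Scaling to miRNA reads in place of TMM gave 97 of 153 cluster loci called lower in the triple mutant than in hrde-1, and 107 of 153 called lower in the meg double mutant than in hrde-1, with 0 higher in both. Over all 6783 loci tested, that scaling called 75% lower and 0.604% higher in the triple mutant than in hrde-1, and 43.2% lower and 2.51% higher in the meg double mutant than in hrde-1.

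The authors' deposited tables also held few calls among the cluster loci. In the authors' deposited table for hrde-1 against N2, 13 of the 788 cluster loci with an adjusted p were higher and 6 lower, where 15.9% of 13876 loci were called (8.75% higher, 7.19% lower). The authors' deposited table for the triple mutant against N2 had 26 of 653 higher and 7 lower, against 18.8% of 12595 loci (8.77% higher, 10% lower). The authors' deposited table for the triple mutant against the meg double mutant had 1 of 570 higher and 0 lower, against 4.33% of 11871 loci (2.39% higher). Median log2 fold changes of the cluster loci in the authors' deposited tables were 0.09, 0.26 and 0.28, beside 0.07, -0.02 and -0.10 over all loci. Whether both tables against N2 hold the same N2 libraries was not checked, so their values are given side by side and not as separate support.

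The loci that rose over N2 in the authors' deposited tables lay in all 5 clones. In Y57G11C these included 21ur-32 (Y57G11C.248, sense in an intron of Y57G11C.42), by 1.71 in hrde-1 (adjusted p = 5.04e-06) and 1.40 in the triple mutant (adjusted p = 3.66e-05) on the log2 scale. In Y105C5A the authors' deposited tables gave 21ur-1375 (Y105C5A.171) a rise of 1.41 in hrde-1 (adjusted p = 1.16e-04) and 1.14 in the triple mutant (adjusted p = 7.83e-04). Between the mutant strains neither locus was called. 21ur-32 held 57.8 and 70.1 RPM in hrde-1, 29.7 and 46.7 RPM in the meg double mutant, and 41.6 and 37.3 RPM in the triple mutant. 21ur-1375 held 69.0 and 74.9 RPM, 34.3 and 55.3 RPM, and 50.7 and 40.3 RPM in the same order.

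Falls over N2 were few, and most of them lay in clone Y116A8A. In the authors' deposited table for hrde-1 against N2, 4 of the 6 falls were in Y116A8A, namely 21ur-128, 21ur-2508, 21ur-2649 and 21ur-14192. In the authors' deposited table for the triple mutant against N2, 4 of the 7 falls were in Y116A8A, namely 21ur-13515, 21ur-2649, 21ur-5987 and 21ur-14192. The others were 21ur-696 of Y105C5A and 21ur-6411 of Y51H4A in both of the authors' deposited tables with N2, and 21ur-3963 of Y51H4A in the one for the triple mutant. The falls in Y116A8A are 4 of its 54 loci with an adjusted p in the authors' deposited table for hrde-1, or 7.41%, near the 7.19% of all loci, and 4 of 50 in the one for the triple mutant, or 8%, near the 10% of all loci. By the WBcel235 order, Y116A8A holds the last 117 loci of the cluster, 2.90% of the members.

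Clone Y116A8A stood apart in the summed reads of the mutant strains. Its loci averaged 6.11 RPM each, against 2.18 to 2.505 RPM in the other 4 clones, and 6 of its 117 loci had no read in any library. It took 5.89% and 6.11% of the cluster's reads in hrde-1, 9.98% and 9.87% in the meg double mutant, and 6.69% and 7.10% in the triple mutant. Both meg double mutant libraries lay above the other 4. The log2 ratio of summed RPM for the triple mutant over the meg double mutant was -0.47 in Y116A8A and 0.01 to 0.23 in the other 4 clones, and for the meg double mutant over hrde-1 it was 0.39 in Y116A8A and -0.48 to -0.28 in the others.

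Cut into 41 windows of 100 consecutive loci, the cluster showed where this difference lay. In the last window, of 39 loci in Y116A8A, the log2 ratio of summed RPM was -0.78 for the triple mutant over the meg double mutant, and in the other 40 windows it ran from -0.15 to 0.33. For the meg double mutant over hrde-1 it was 0.72 in the last window and -0.60 to -0.13 in the other 40. For the triple mutant over hrde-1 the last window, at -0.06, lay within the range of the others, which was -0.52 to 0.04. The windows were laid out after the values of Y116A8A had been seen. Another scaling shifts all windows of a comparison by about the same amount, though not exactly, because it also reweights the libraries of a strain. The last window held 372 and 466 RPM in hrde-1, 620 and 763 RPM in the meg double mutant, and 412 and 394 RPM in the triple mutant.

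**Figure D3:**
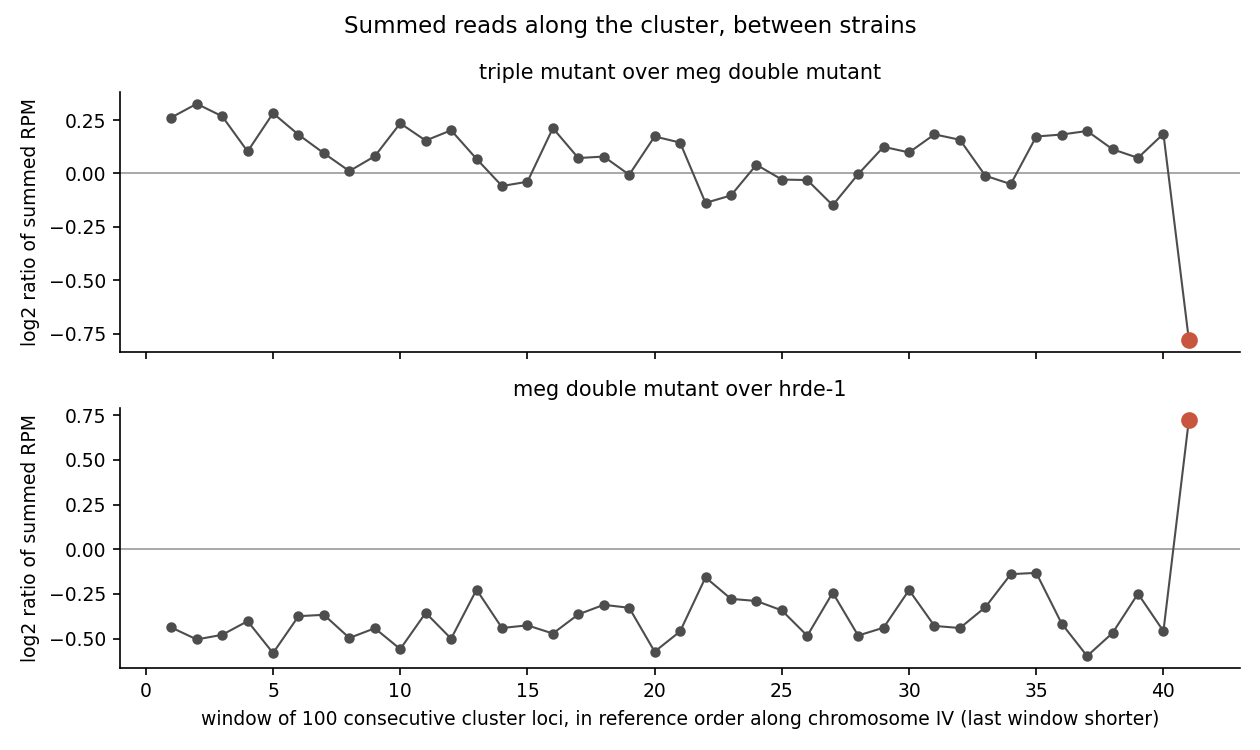
The log2 ratio of summed RPM in 41 consecutive windows of cluster loci, for the triple mutant over the meg double mutant (top) and the meg double mutant over hrde-1 (bottom); each point is a window. The last window, at -0.78 and 0.72, lies outside the range of the other 40 windows in both panels.

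Within that window the loci from 21ur-14439 to 21ur-14192, the last of the cluster, mostly differed in the same direction, and are called the distal run. This run holds 26 loci, 12 on the plus and 14 on the minus strand, and none in an annotated gene. Its end points were chosen after the values were seen, so its sums and counts are a description without a test. The run summed to 245 and 319 RPM in hrde-1, 473 and 581 RPM in the meg double mutant, and 264 and 269 RPM in the triple mutant. Both meg double mutant libraries were above the other 4 without overlap, and the hrde-1 and triple mutant libraries overlapped. Without 21ur-2649, the locus of the run with the highest level, the sums were 166 and 209 RPM, 274 and 328 RPM, and 159 and 166 RPM in the same order.

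At 21 of the 26 loci of the distal run the mean of the meg double mutant was above that of the triple mutant, and at 20 it was above that of hrde-1. The authors' deposited table for hrde-1 against N2 gave 23 of these loci an adjusted p, with a median log2 fold change of -0.94 and 21 values below 0. In the authors' deposited table for the triple mutant against the meg double mutant 19 of 21 were below 0, with a median of -0.73. The authors' deposited table for the triple mutant against N2 had a median of -0.56 and 20 of 22 values below 0. Since the end points of the run were chosen after the values were seen, these counts are not a test.

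21ur-2649 (Y116A8A.15, WBGene00045751) lies on the plus strand outside annotated genes. It held 79.3 and 110 RPM in hrde-1, 199 and 253 RPM in the meg double mutant, and 104.9 and 103 RPM in the triple mutant. By reads it ranked 4 and 3 among the cluster loci in the meg double mutant libraries and 14 to 25 in the other 4. limma gave a log2 fold change of 1.45 ± 0.36 (SE) for the meg double mutant over hrde-1 (adjusted p = 0.0124), and the call was lost without the first hrde-1 library (adjusted p = 0.0592) and with scaling to miRNA reads (adjusted p = 0.138). For the triple mutant over the meg double mutant limma gave -0.92 ± 0.35 (SE) (adjusted p = 0.169). Whether this difference was called depended on the library left out. The authors' deposited tables gave it log2 fold changes over N2 of -1.27 in hrde-1 (adjusted p = 2.09e-04) and -0.76 in the triple mutant (adjusted p = 9.69e-04).

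Next to it in the reference order is 21ur-2508 (Y116A8A.62, WBGene00050543), also on the plus strand. Its values were 15.4 and 20.2 RPM in hrde-1, 38.7 and 47.1 RPM in the meg double mutant, and 20.1 and 16.4 RPM in the triple mutant. limma called it higher in the meg double mutant than in hrde-1, with a log2 fold change of 1.41 ± 0.34 (SE) (adjusted p = 0.0096). As for 21ur-2649, the call was lost without the first hrde-1 library (adjusted p = 0.0696) and with scaling to miRNA reads (adjusted p = 0.165).

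21ur-14192 (Y116A8A.72, WBGene00165622), the last locus of the cluster, lies on the minus strand. It held 9.36 and 11.5 RPM in hrde-1, 19.9 and 21.9 RPM in the meg double mutant, and 6.93 and 6.29 RPM in the triple mutant. It was the 1 cluster locus that limma called in the triple mutant over the meg double mutant, with a log2 fold change of -1.36 ± 0.38 (SE) (adjusted p = 0.041). The locus was also called higher in the meg double mutant than in hrde-1, with 1.11 ± 0.36 (SE) (limma adjusted p = 0.0495). That call was lost with a pseudocount of 0.5 (adjusted p = 0.0518), with edgeR (adjusted p = 0.0516), with scaling to library totals (limma adjusted p = 0.0774) or to miRNA reads (limma adjusted p = 0.455), with no filter (limma adjusted p = 0.0982), and without either hrde-1 library or the second meg double mutant library (limma adjusted p = 0.0745 to 0.188). 21ur-14192, 21ur-2508, 21ur-5987 and 21ur-14182 each overlap 1 other 21U-RNA locus, so which of the 2 their reads came from is uncertain.

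21ur-13515, 21ur-5987 and 21ur-128 of the same run had both meg double mutant libraries above both triple mutant libraries. 21ur-13515 held 11.01 and 21.7 RPM in hrde-1, 22.4 and 34.99 RPM in the meg double mutant, and 10.6 and 10.1 RPM in the triple mutant. 21ur-5987 held 21.5 and 29.8 RPM, 36.1 and 43.4 RPM, and 17.7 and 18.0 RPM in the same order. In the triple mutant over the meg double mutant neither passed limma's test, with adjusted p of 0.0642 and 0.123. Whether 21ur-13515, 21ur-5987, 21ur-2649, 21ur-2508 and 21ur-14192 were called in that comparison depended on the library left out. Cluster loci called without the first meg double mutant library lay in the distal run and were lower. Those called without the second lay outside the distal run and were higher. 21ur-128 held 4.59 and 4.78 RPM in hrde-1, 12.6 and 14.5 RPM in the meg double mutant, and 4.57 and 5.87 RPM in the triple mutant, under the minimum mean of the test.

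A shorter stretch of the same clone differed in the opposite direction. This proximal run, from 21ur-4426 to 21ur-10037, holds 5 loci, all on the plus strand, and was likewise delimited after the values were seen. It summed to 42.01 and 50.6 RPM in hrde-1, 24.5 and 21.7 RPM in the meg double mutant, and 43.1 and 45.3 RPM in the triple mutant. Both meg double mutant libraries were below the other 4. At 21ur-14182 (Y116A8A.76, WBGene00165961) the libraries held 6.79 and 7.38 RPM in hrde-1, 2.31 and 1.56 RPM in the meg double mutant, and 8.55 and 7.97 RPM in the triple mutant. It was the 1 cluster locus called in the authors' deposited table for the triple mutant against the meg double mutant, higher by 2.30 on the log2 scale (adjusted p = 0.0309). Over N2 the authors' deposited tables gave it 3.10 in hrde-1 (adjusted p = 0.00125) and 3.71 in the triple mutant (adjusted p = 1.22e-05).

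**Figure D4:**
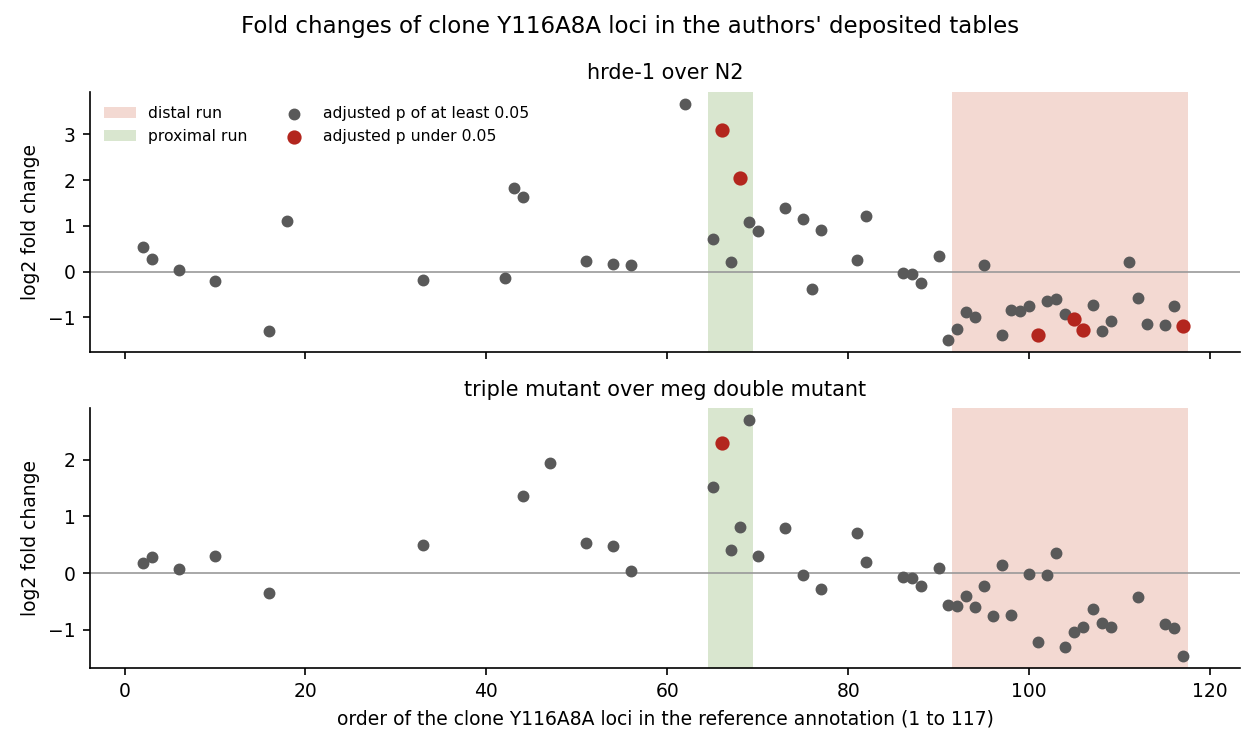
Log2 fold changes in the authors' deposited tables for hrde-1 against N2 (top) and the triple mutant over the meg double mutant (bottom), against the order of the clone Y116A8A loci; each point is a locus with an adjusted p. In the distal run 21 of 23 and 19 of 21 loci lie below 0, and in the proximal run all 5 lie above 0 in both panels. Both runs were delimited after the values were seen.

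The other 86 loci of Y116A8A showed no such difference in sum. They held 306 and 355 RPM in hrde-1, 298 and 329 RPM in the meg double mutant, and 322 and 301 RPM in the triple mutant, and all 3 strains overlapped. The 26 21U-RNA loci that follow the cluster in the reference order, in clone T06A10, held 25.5 and 39.3 RPM, 33.0 and 19.5 RPM, and 30.4 and 27.7 RPM, again with all strains overlapping.

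**Figure D5:**
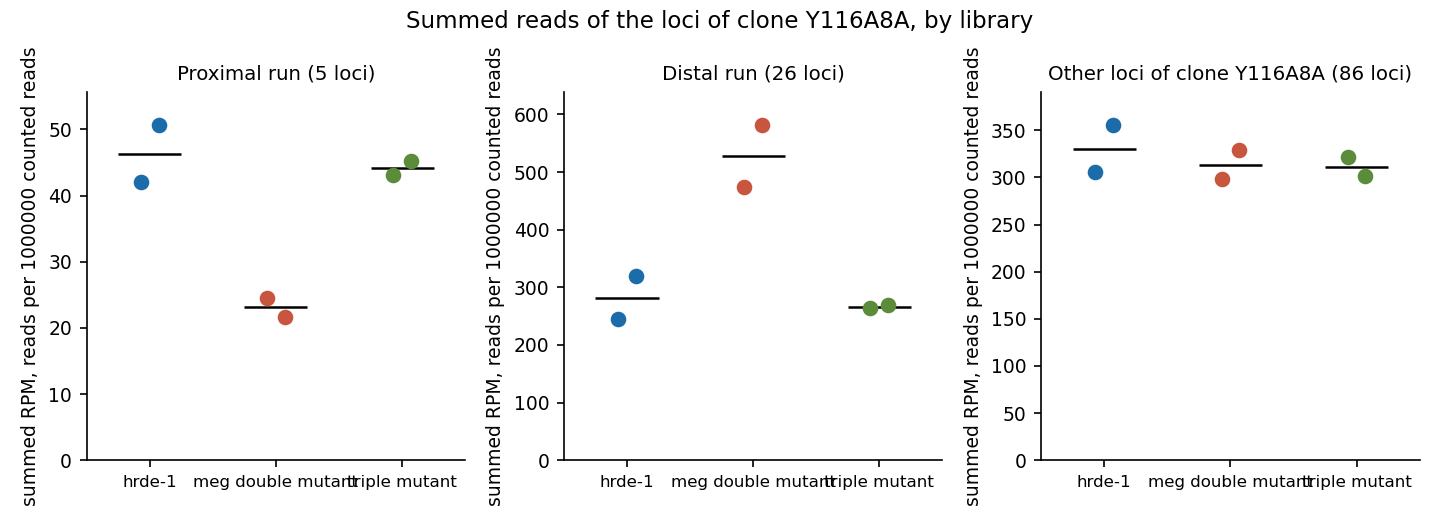
Summed RPM per library of the proximal run, the distal run and the other loci of clone Y116A8A; points are libraries and bars the means of 2. The meg double mutant libraries are lowest in the proximal run, highest in the distal run, at 473 and 581 RPM, and overlap with the other strains in the rest of the clone.

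Small RNAs at Y116A8A.150 and Y116A8A.6, protein-coding genes by the runs, were looked at after these values were seen. Other genes near the runs, such as Y116A8A.7 and clec-194, are not described here. Y116A8A.150 (WBGene00219241), the next gene past the distal run, held 11.2 and 14.3 RPM in hrde-1, 22.03 and 31.1 RPM in the meg double mutant, and 10.3 and 12.6 RPM in the triple mutant. limma called it higher in the meg double mutant than in hrde-1 (log2 fold change 1.17 ± 0.35 SE, adjusted p = 0.0359) and gave -0.96 ± 0.35 (SE) for the triple mutant over the meg double mutant (adjusted p = 0.147). Y116A8A.6 (WBGene00013776), within the proximal run, held 18.7 and 23.9 RPM, 9.06 and 5.67 RPM, and 17.6 and 22.2 RPM in the order hrde-1, the meg double mutant and triple mutant. It was called lower in the meg double mutant than in hrde-1 (limma log2 fold change -1.25 ± 0.35 SE, adjusted p = 0.0242) and higher in the triple mutant than in the meg double mutant (1.51 ± 0.38 SE, adjusted p = 0.0219). The call of Y116A8A.150 was lost without the first hrde-1 library (limma adjusted p = 0.16) or the second meg double mutant library (limma adjusted p = 0.206). It was also lost with scaling to library totals (limma adjusted p = 0.082) or to miRNA reads (limma adjusted p = 0.44), and with no filter (limma adjusted p = 0.07). For Y116A8A.6 the call against hrde-1 was lost without either hrde-1 library or the second meg double mutant library (limma adjusted p = 0.0706 to 0.227). Its call in the triple mutant was lost without either triple mutant library (limma adjusted p = 0.276 and 0.518) and with scaling to library totals or to miRNA reads (limma adjusted p = 0.104 and 0.107).

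The only cluster locus called outside Y116A8A between the mutant strains was 21ur-3977 (Y51H4A.110, WBGene00046728). Its values were 53.2 and 56.7 RPM in hrde-1 and 24.5 and 22.5 RPM in the meg double mutant. The triple mutant held 37.2 and 35.7 RPM, with no overlap between strains by RPM. With TMM scaling limma gave -0.15 ± 0.31 (SE) for the triple mutant over hrde-1 (adjusted p = 0.805). limma gave -1.004 ± 0.31 (SE) for the meg double mutant over hrde-1 (adjusted p = 0.0413), and the call was lost when any 1 of the 4 compared libraries was left out, with adjusted p from 0.0747 to 0.242. It was also lost with DESeq2 (adjusted p = 0.0879) and with no filter on low values (limma adjusted p = 0.0938).

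The genes of the piRNA pathway were described by the small RNAs counted at them, not by their messenger RNA. Of 29 names of piRNA biogenesis genes 26 had a locus and 23 could be tested. limma called 7.75% of all loci tested in the triple mutant over the meg double mutant. Over hrde-1 it called 10.3% in the triple mutant and 16.4% in the meg double mutant. It called 0 of the 23 biogenesis loci in all 3 comparisons between the mutant strains. In the authors' deposited table for hrde-1 against N2, 6 of 25 were higher and 0 lower, where 8.75% of all loci were higher and 7.19% lower. Among them was prg-1, which encodes the Argonaute that binds 21U-RNAs, by 0.98 (adjusted p = 0.0159), and tofu-4, needed for 21U-RNA production, by 1.33 (adjusted p = 0.00294), on the log2 scale of the authors' deposited table. In the authors' deposited table for the triple mutant against N2, 3 of 25 were higher and 0 lower, where 8.77% of all loci were higher and 10% lower, with 0.47 at prg-1 (adjusted p = 0.0491) and 1.06 at pid-4, listed as W03G9.2 (adjusted p = 6.28e-05). The libraries held 905 and 519 RPM at prg-1 in hrde-1, 533 and 283 RPM in the meg double mutant, and 355 and 421 RPM in the triple mutant, so the first hrde-1 library was far above the second.

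The 36 names of genes for piRNA-directed silencing matched 32 loci, and some names are of the same gene, such as meg-3 and gei-12. limma called 0 of the 29 tested in all 3 comparisons, where its shares over all loci were the 7.75%, 10.3% and 16.4% given above. The authors' deposited tables gave 5 higher and 1 lower of 32 in hrde-1 over N2. They gave 5 higher and 5 lower of 32 in the triple mutant over N2, and 0 of 30 in the triple mutant over the meg double mutant. The shares over all loci in the authors' deposited tables were 8.75% higher and 7.19% lower, 8.77% higher and 10% lower, and 2.39% higher and 1.94% lower, in the same order. The list holds the mutated genes themselves. The 5 lower in the triple mutant were hrde-1, meg-3 and meg-4, which are mutated in that strain, and mut-2 and drh-3. The 1 lower in hrde-1 over N2 was meg-4. Median log2 fold changes of the biogenesis list in the same 3 deposited tables of the authors were 0.78, 0.19 and -0.19, and those of the silencing list 0.51, 0.09 and -0.30.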

How the data were processed

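Small RNA libraries of 3 mutant strains, 2 each, were analysed from 3 tables that the authors deposited. The submitters' processing notes name the build ce10 and the tools HTSeq, Bowtie2, DESeq2 and cutadapt. Roles, versions and settings, strand counting and how reads that map to more than 1 place were treated are not given in the sources used here. Per the file headers the values are fpm. In the deposited table for the triple mutant against N2 they are RPM, and in the other 2 tables the authors' values are a scaled signal whose column sums differ. Log2 fold changes and adjusted p-values were deposited by the authors. The 4 per-library columns of N2 were not used.

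Every value was a whole multiple of the smallest above 0 in its column, in 100% of values within 0.001 read, and reads were recovered on that basis. The plan had foreseen normalized values, and limma 3.58.1 with an intensity trend was fitted, for the triple mutant over the meg double mutant to log2(deposited value + 1) within the 1 table that holds both strains, and for the other pairs to log2(RPM + 1) of the 6 libraries scaled together with TMM (edgeR 4.0.16). Fold changes on this scale understate those of low loci. Loci with a mean of at least 10 were tested. edgeR and DESeq2 1.42.0 on the recovered reads were alternatives, and the scripts were tested on simulated data. RPM in the text is per 1000000 reads counted at annotated loci. Intervals and limits cover counting error only, since reads carry no molecular identifiers.

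Named loci are the 12 with the highest level, the highest of each clone, up to 8 called per limma comparison and direction, and up to 5 per deposited table and direction, plus those said to be chosen after their values were seen. The members, lists and rules were chosen with earlier results of these data known. The files use ce10 and the annotation WBcel235, so that annotation gave only class, strand, overlap and order, and no coordinates or sequences are printed.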

Additional observations from a re-analysis of the deposited data

How the results depend on the processing

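For the triple mutant over the meg double mutant, the 1 call among cluster loci became 0 with scaling to miRNA reads, with a replicate block and with DESeq2, 2 with a minimum mean of 5 and 4 (3 higher, 1 lower) with no filter. Leaving out 1 library changed which cluster loci were called. The calls were lower without the first meg double mutant library and higher without the second, and were lost without either triple mutant library. Calls over all loci tested changed in number with the library left out as well. A lone library is then assumed to vary like the other groups. For the triple mutant over hrde-1 the 0 calls became 97 of 153, all lower, with scaling to miRNA reads, where 75% of all loci tested were lower, and stayed at 0 under the other 11 settings, the 4 that leave out a library included. For the meg double mutant over hrde-1 the 4 calls became 107 of 153, all lower, with scaling to miRNA reads, where 43.2% of all loci tested were lower, and ranged from 0 to 4 when a library was left out. The cause of these changes was not tested.

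Deviations of same-numbered libraries correlated at -0.11 for the triple mutant and the meg double mutant and at -0.19 for the triple mutant and hrde-1. For the meg double mutant and hrde-1 they correlated at 0.56, so same-numbered libraries of these strains deviated together. The labels do not say whether they were handled together, and the main fits did not pair them. The replicate block gave 0 calls for the triple mutant over the meg double mutant, 0 for the triple mutant over hrde-1 and 4 for the meg double mutant over hrde-1.

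The log2 ratio of cluster sums became 0.30 with TMM for the triple mutant over the meg double mutant, 0.14 with TMM and -0.96 with miRNA scaling for the triple mutant over hrde-1, and -0.15 and -1.06 for the meg double mutant over hrde-1. Leaving out libraries gave -0.06 to 0.18, -0.39 to -0.16 and -0.46 to -0.21. At single loci, the triple mutant over the meg double mutant turned to -0.047 at 21ur-14 with scaling to library totals. Ranges without 1 library were -0.029 to 0.69 at 21ur-1114, -0.070 to 0.34 at 21ur-14, -0.096 to 0.53 at 21ur-5568, -0.19 to 0.66 at 21ur-1375 and -0.15 to 0.66 at 21ur-32, each lowest without the first meg double mutant library. The call of 21ur-14192 was lost under 6 settings, with adjusted p from 0.061 to 0.542 by limma or DESeq2.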

Other observations

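Across the 566 cluster loci with an adjusted p in both tables, the log2 fold changes in the authors' deposited tables for hrde-1 against N2 and for the triple mutant against the meg double mutant, which share no library, had a Pearson r of 0.26 and a Spearman rho of 0.15. Without both runs of Y116A8A the values were 0.11 and 0.06 over 541 loci, and over 1052 21U-RNA loci outside the cluster clones r was 0.31. These are descriptions across loci, which share libraries and are not independent replicates.

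At 11 of the 140 cluster loci at 10 RPM or more, a set picked after the values were seen, the second library was above the first by over 0.5 on the log2(RPM + 1) scale in both hrde-1 and the meg double mutant. 21ur-3963 held 64.2 and 152 RPM in hrde-1, 37.3 and 79.2 RPM in the meg double mutant, and 31.4 and 68.4 RPM in the triple mutant. At 21ur-507 the values were 49.0 and 91.0 RPM, 35.4 and 68.8 RPM, and 30.2 and 44.0 RPM in the same order.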
